A study of Mus musculus with 6 samples.

Results

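The replisome, origin licensing and nucleotide supply genes described here are 52 mouse genes chosen by name: the listed components of origin licensing, the replicative helicase, the DNA polymerases, the clamp and its loader, chromatin assembly and dNTP synthesis. The rule for listing them uses no measured value, but the genes were chosen with earlier results of these data known. All 52 were found among the 55471 genes of the deposited table, and all 52 were among the 15454 genes with enough reads to be tested. The genes were sorted by role into 9 sets of 3 to 11 members.

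The samples were polyA RNA from 10T1/2 cells, an established line of mouse embryonic fibroblasts, grown untreated in DMEM with serum and antibiotics. The KO-labelled group (3 libraries) has the genotype Ranbp2 KO, which the study itself produced with CRISPR/Cas9, and the WT group (3 libraries) is the same line of genotype WT. Neither the number of knockout clones nor the way the replicates of a group were kept apart is stated in the labels. P-values therefore measure only how far these 6 libraries spread, and that spread may be technical. Ranbp2 encodes a large nucleoporin of the cytoplasmic filaments of the nuclear pore. Its mRNA level was 294, 289 and 293 CPM (scaled counts per 1e6) in KO-labelled libraries, against 219.6, 249.96 and 249 CPM in WT libraries (log2 difference 0.28, SE 0.07, adjusted p = 0.012). The targeted mRNA was thus higher, not lower, in the libraries labelled KO, and gene counts do not show whether its reading frame is intact.

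Library totals ran between 32072817 and 46321967 expected counts. Across genes, Pearson's r of log2 CPM ran from 0.985 to 0.990 for libraries of 1 group, and from 0.950 to 0.957 for libraries of different groups. Of 10 fibroblast markers, 8 averaged over 10 CPM in the KO-labelled libraries and 8 in the WT libraries, 5 were called higher, 3 lower and 2 neither. Their summed level was 26206 to 32924 CPM in the KO-labelled libraries, against 20395 to 23982 CPM in the WT libraries. Fn1, fibronectin, had the largest difference in CPM of the 10, at 14511 CPM in the KO-labelled libraries and 5860.1 CPM in the WT libraries on average. Thy1 averaged 0.533 CPM in the KO-labelled libraries, against 58.3 CPM in the WT libraries. Lum was low in both groups, at 0.799 CPM in the KO-labelled and 0.165 CPM in the WT libraries. Dcn averaged 19.5 CPM in the KO-labelled libraries and 4.94 CPM in the WT libraries. Summed epithelial markers were at 6.002 to 8.97 CPM in the KO-labelled libraries and 2.14 to 2.60 CPM in the WT libraries, with Cldn4 at 0. Summed leukocyte markers were at 1.40 to 2.30 and 1.49 to 2.23 CPM in the KO-labelled and WT libraries, with Adgre1 at 0. Endothelial markers summed to 20.8 to 24.7 CPM in the KO-labelled libraries, against 35.3 to 39.5 CPM in the WT libraries, and neural markers, with Olig2 at 0, to 4.05 to 4.98 against 16.2 to 18.8 CPM. The differences in the epithelial, endothelial and neural sums came mainly from 1 gene each: Cdh1 (7.46 CPM in the KO-labelled and 2.22 CPM in the WT libraries), Tek (21.9 and 37.03 CPM) and Tubb3 (2.03 and 15.4 CPM). The part of these differences in the results below was not tested.

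DNA replication is prepared in G1, when the origin recognition complex, Cdc6 and Cdt1 load the MCM2-7 helicase onto DNA as an inactive ring. Cyclin E and Cdk2, with the Dbf4-dependent kinase Cdc7, then let Cdc45 and GINS join it, and the active helicase travels with DNA polymerases, the sliding clamp PCNA and the single-strand binding protein RPA. In cycling fibroblasts many of these genes are transcribed around the G1/S border under E2F factors, which RB family proteins hold in check. Ribonucleotide reductase, thymidylate synthase and thymidine kinase supply the dNTPs, and CAF-1 puts histones onto the new DNA.

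Of the 52 genes, 37 were higher in the KO-labelled libraries and 0 were lower at an adjusted p below 0.05 (edgeR's quasi-likelihood test, Benjamini-Hochberg adjustment over all genes tested). Across all genes tested, 17.6% were called higher and 21.3% lower. The remaining 15 members did not pass the test. Of all 52, 51 had a positive log2 difference, and the exception was Tk1. The median log2 difference was 0.32, a 1.246-fold change, beside 0.01 for all genes tested and -0.03 for the 8168 tested genes within the members' range of mean CPM, of which 1524 were called higher. The changes were small: called members differed 1.16-fold to 1.66-fold, 6 were higher by at least 1.5-fold (Mcm6, Rfc3, Orc1, Rpa2, Chaf1b and Mcm3; 8.03% of all genes tested were called and past that fold), and 0 reached 2-fold. In a bulk measurement, a larger share of cells in S phase and more mRNA per replicating cell cannot be told apart.

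The count of 37 depended on which libraries were compared: it was 24 without WT replicate 2 and 25 without KO-labelled replicate 2, and 29 to 39 when any of the other 4 was left out. No member was called lower under any setting tried, none had an unadjusted p below 0.05 in that direction (42 had one in the other), and DESeq2 called 0 lower. Of the 37 called members, 24 kept the call in all 6 leave-one-out fits. The 3 KO-labelled values all lay above the 3 WT values for 43 members and all below them for 0, while 24.6% of all genes tested lay entirely above and 26.8% entirely below. The other 9 members overlapped between groups.

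**Figure D1:**
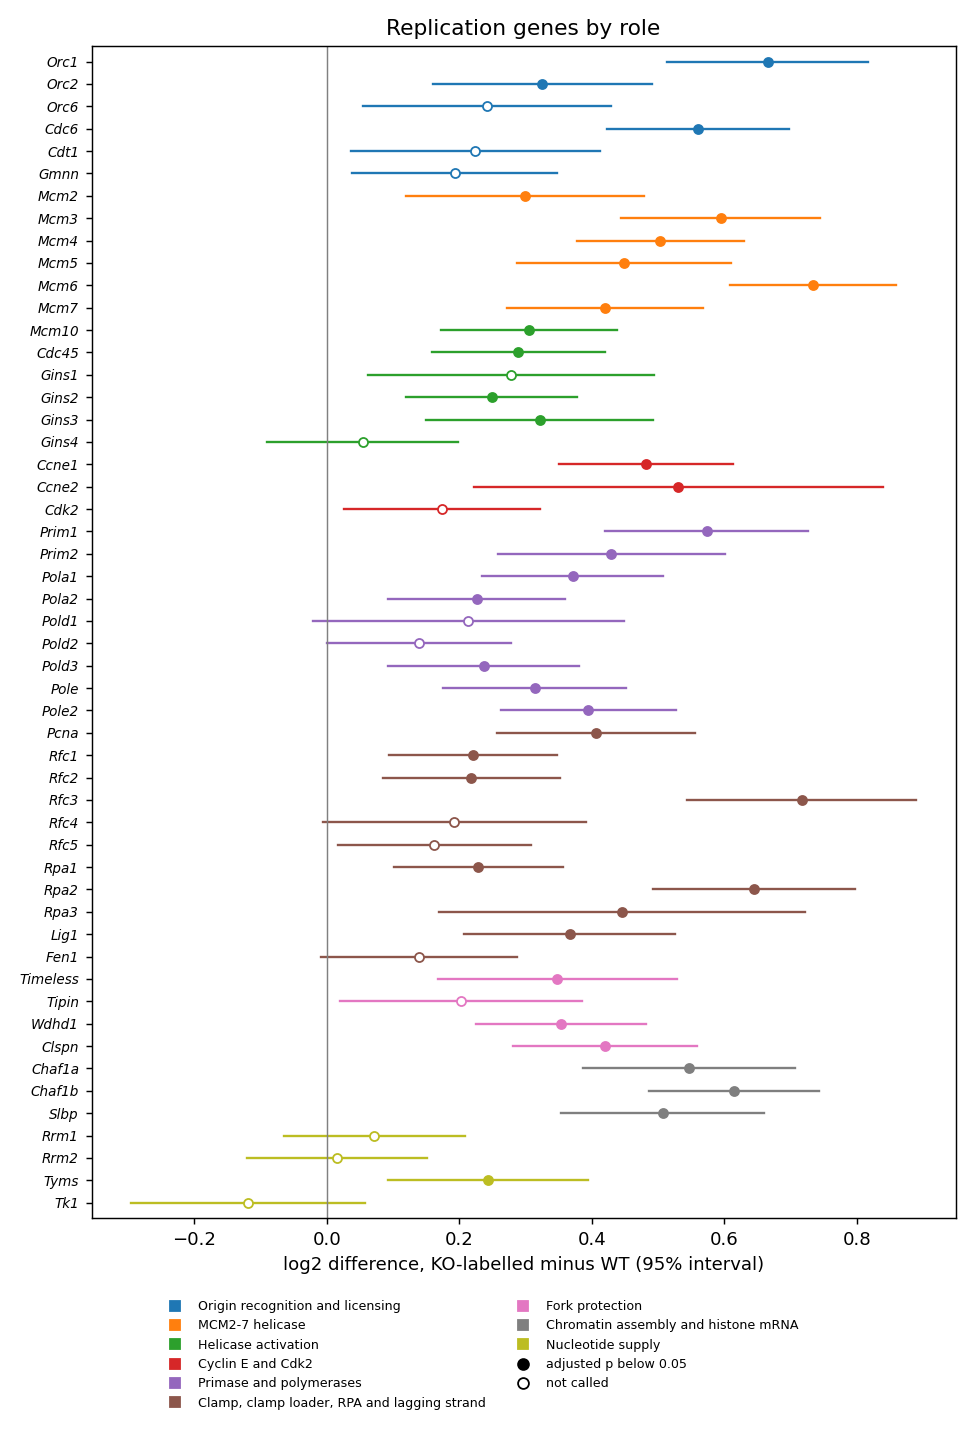
Log2 difference (KO-labelled minus WT) of each of the 52 genes with its normal 95% interval, grouped and coloured by role. These intervals are narrower than the quasi-likelihood test implies, so an interval clear of 0 is not a call. For Pold2 the interval was 0.001 to 0.278, while that test gave an unadjusted p of 0.078. Filled points passed an adjusted p of 0.05 and open points did not. Of the 52 points, 51 lie to the right of 0, and Rrm1, Rrm2, Gins4 and Tk1 are among those close to it.

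The promoters of the 4 called members of smallest adjusted p with a RefSeq entry, Mcm6, Chaf1b, Orc1 and Rpa2, are printed here because the groups were told apart with the smallest adjusted p at these genes. The promoter of Rrm1, the member not called with the highest mean level that has an entry, is printed beside them. Each runs from 250 bases before to 50 bases after the RefSeq start, 5′ to 3′ on the gene's strand in build GRCm38.p6: Mcm6 at chr1:128359656-128359955 on the minus strand, Chaf1b at chr16:93883651-93883950 on the plus strand, Orc1 at chr4:108579204-108579503 on the plus strand, Rpa2 at chr4:132768110-132768409 on the plus strand and Rrm1 at chr7:102441445-102441744 on the plus strand. Capitals mark E2F-like words, that is TTTCCCGC, TTTCGCGC, TTTGCCGC or TTTGGCGC on either strand.
Mcm6: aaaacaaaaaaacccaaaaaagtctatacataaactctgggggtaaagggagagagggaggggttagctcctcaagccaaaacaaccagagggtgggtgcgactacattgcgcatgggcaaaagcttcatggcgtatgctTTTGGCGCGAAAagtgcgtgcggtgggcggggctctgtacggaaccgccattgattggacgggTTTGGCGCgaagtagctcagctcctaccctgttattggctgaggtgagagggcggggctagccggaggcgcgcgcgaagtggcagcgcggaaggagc
Chaf1b: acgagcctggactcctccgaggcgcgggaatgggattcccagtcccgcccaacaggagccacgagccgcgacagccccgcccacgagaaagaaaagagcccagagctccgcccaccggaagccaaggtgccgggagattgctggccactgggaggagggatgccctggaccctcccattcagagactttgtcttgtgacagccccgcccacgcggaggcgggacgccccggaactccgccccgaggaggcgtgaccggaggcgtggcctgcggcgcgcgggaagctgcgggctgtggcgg
Orc1: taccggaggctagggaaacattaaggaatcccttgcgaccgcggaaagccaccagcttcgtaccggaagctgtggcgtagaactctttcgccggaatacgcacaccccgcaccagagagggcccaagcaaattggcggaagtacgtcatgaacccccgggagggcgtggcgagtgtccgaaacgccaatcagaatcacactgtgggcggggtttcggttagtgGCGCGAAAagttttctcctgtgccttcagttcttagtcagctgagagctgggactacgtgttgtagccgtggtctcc
Rpa2: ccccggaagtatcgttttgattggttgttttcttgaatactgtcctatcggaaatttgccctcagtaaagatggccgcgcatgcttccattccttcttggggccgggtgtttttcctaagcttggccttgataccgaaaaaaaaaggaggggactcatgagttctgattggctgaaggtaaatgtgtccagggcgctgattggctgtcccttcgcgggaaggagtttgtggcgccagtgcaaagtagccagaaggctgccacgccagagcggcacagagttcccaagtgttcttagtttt
Rrm1: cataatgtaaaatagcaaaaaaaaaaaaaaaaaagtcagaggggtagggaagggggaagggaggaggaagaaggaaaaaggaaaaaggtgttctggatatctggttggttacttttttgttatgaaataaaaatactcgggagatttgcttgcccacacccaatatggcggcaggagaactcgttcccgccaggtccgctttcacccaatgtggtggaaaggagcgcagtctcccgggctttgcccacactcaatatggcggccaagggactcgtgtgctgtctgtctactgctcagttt

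The Mcm6 promoter held 3 E2F-like words, whose first bases lie at -110, -106 and -47 from the start (the start base being 0); the words at -110 and -106 lie on opposite strands and share bases. The Orc1 promoter held 1, at -27, and the Chaf1b, Rpa2 and Rrm1 promoters held 0. Other short words differed as well: Chaf1b had 5 GC boxes (GGGCGG) and no CCAAT, Rpa2 had 3 CCAAT boxes and no GC box, Orc1 had 2 CCAAT boxes and 1 GC box, Mcm6 had 2 of each, and Rrm1 had 2 CCAAT boxes and no GC box. A match is a description of letters only, and the factors' binding was not measured.

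Of the 52 members, 42 had entries in the RefSeq table, with 48 promoters between them. An E2F-like word was present in 16 of the 48 (33.3%), each of a different gene, beside 497 of 13421 promoters of genes tested (3.70%) and 744 of all 32851 promoters (2.27%). At least 2 such words, overlapping ones included, were present in 5 of the 48 (10.4%) and in 0.0974% of all promoters. The share was 13 of 35 (37.1%) for promoters of members called higher and 3 of 13 (23.1%) for promoters of members not called. The genes with a word were Orc1, Cdc6 and Cdt1 of licensing, Mcm3, Mcm5, Mcm6 and Mcm7, Gins3, Cdk2, the polymerase genes Pola1, Pold1, Pold3 and Pole2, Rfc3, Lig1 and Clspn. No word was found for the 3 chromatin assembly and histone mRNA genes or the 4 nucleotide supply genes. Only the exact words were searched, so a promoter without a match may still hold a near variant of them.

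The base composition of the members' promoters was close to that of the genes tested (median GC 60.7% against 60.3%), and among promoters of genes tested within the members' GC range the E2F-like share was 3.84%. CCAAT, on either strand, was in 58.3% of the members' promoters and 38.0% of those of genes tested. The GC box was in 68.8% against 60.5%, and TTTGAA, the core of the CHR element of mitotic genes, was in 10.4% against 12.5%. Of the 22 E2F-like words, 14 lay within 100 bases of the start. The overlapping pair of words in Mcm6 also stood in the Mcm5 promoter, on the opposite strand, and this 12-base stretch occurred in 4 of all 32851 promoters, the others being those of Msh3 and Mycn; the window was chosen after the values were seen and spans chr8:75109346-75109377 on the plus strand of GRCm38.p6, with words at -153 and -149 in capitals.
Mcm5: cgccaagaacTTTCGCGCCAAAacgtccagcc

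**Figure D2:**
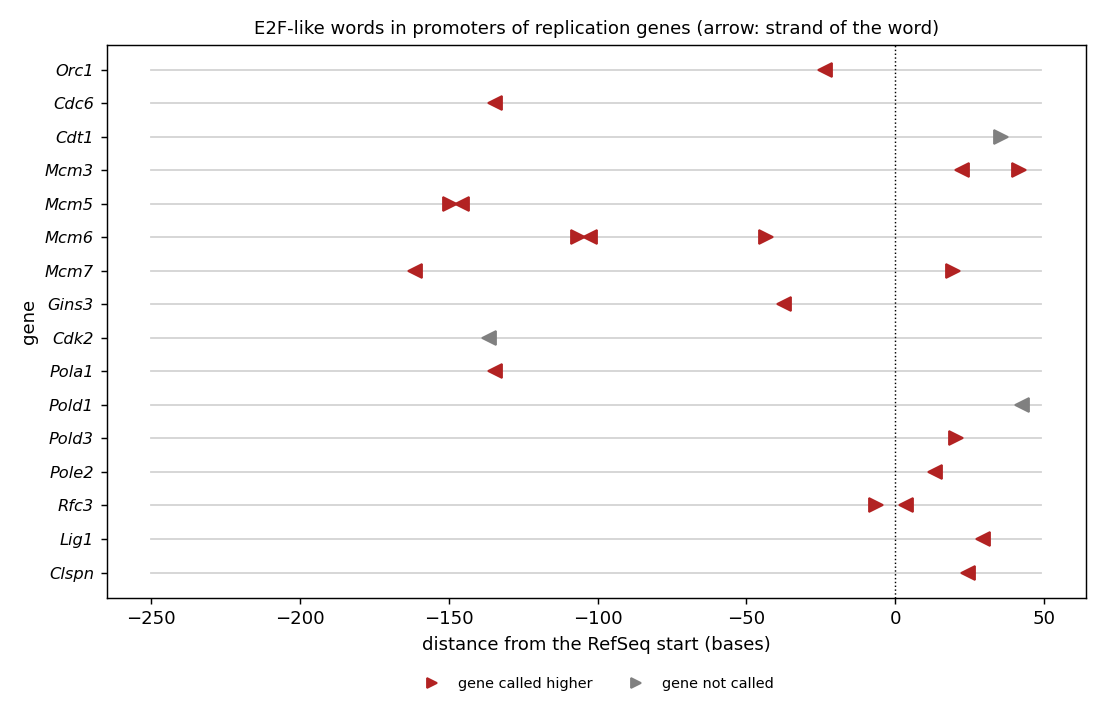
Position of each E2F-like word relative to the RefSeq start (x axis, bases; the dotted line is the start) in the 16 member genes that have one, with the arrow giving the word's strand. Red marks genes called higher in the KO-labelled libraries (13) and grey those not called (3: Cdt1, Cdk2 and Pold1). Of the 22 words, 14 lie within 100 bases of the start, in promoters that reach only 250 bases before and 50 after it.

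Of the 6 genes of origin recognition and licensing, 3 were higher and 3 did not pass the test, with a median log2 difference of 0.28. Orc1, the ORC subunit whose level follows the cell cycle, stood at 37.4, 33.6 and 32.1 CPM in KO-labelled libraries, against 21.7, 21.1 and 22.3 CPM in WT libraries (log2 difference 0.67, SE 0.08, adjusted p = 0.000127). Cdc6, the ATPase that joins ORC to load the helicase, stood at 40.1, 42.4 and 39.5 CPM in KO-labelled libraries, against 28.8, 27.6 and 26.3 CPM in WT libraries (log2 difference 0.56, SE 0.07, adjusted p = 0.000206). For both genes every KO-labelled value was above every WT value by a wide margin. Orc2, a core ORC subunit, stood at 77.7, 81.8 and 77.9 CPM in KO-labelled libraries, against 56.2, 63.8 and 69.4 CPM in WT libraries (log2 difference 0.33, SE 0.08, adjusted p = 0.0127), with WT replicate 3 coming closest to the KO-labelled values; its adjusted p was up to 0.0593 when KO-labelled replicate 2 or WT replicate 2 was left out. Orc1 lies at chr4:108579423-108614833 on the plus strand (GRCm38).

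Orc6, Cdt1, which brings MCM2-7 to the origin, and Gmnn, which encodes the Cdt1 inhibitor geminin, had log2 differences of 0.24, 0.22 and 0.19 (adjusted p = 0.0708, 0.092 and 0.0798). Orc6 passed without WT replicate 3 (adjusted p = 0.0272) and Cdt1 without WT replicate 1 (adjusted p = 0.0143). The ratio of Cdt1 to Gmnn per exon length was 0.707, 0.652 and 0.775 in the KO-labelled libraries and 0.863, 0.657 and 0.584 in the WT libraries, so the groups overlapped. The ratio of Orc1 to Orc2 per exon length was 0.534, 0.456 and 0.457 in the KO-labelled libraries and 0.428, 0.367 and 0.356 in the WT libraries.

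All 6 genes of the MCM2-7 ring, the motor of the replicative helicase, were higher in the KO-labelled libraries, with a median log2 difference of 0.48. Their summed level was 1206, 1361 and 1285 CPM in the KO-labelled libraries, against 923, 879 and 867 CPM in the WT libraries, a ratio of means of 1.44. Mcm6, at chr1:128331590-128359664 on the minus strand, had the largest log2 difference of the 52 genes as tested, but not with each chromosome's median taken out, where Rfc3, at 0.67, stood above Mcm6, at 0.45. Mcm6 stood at 328, 346 and 325 CPM in KO-labelled libraries, against 199.5, 201 and 200.1 CPM in WT libraries (log2 difference 0.73, SE 0.06, adjusted p = 1.94e-05, 95% interval 0.61 to 0.86). Its 3 WT values were within 2 CPM of each other, and the lowest KO-labelled value was far above them. Mcm4 stood at 222, 240.2 and 230.4 CPM in KO-labelled libraries, against 163, 159 and 166 CPM in WT libraries (log2 difference 0.50, SE 0.06, adjusted p = 0.000233). Mcm3 stood at 202, 236 and 227 CPM in KO-labelled libraries, against 154, 144 and 143 CPM in WT libraries (log2 difference 0.59, SE 0.08, adjusted p = 0.000247). Both genes were separated between groups by more than the spread within either. Mcm7 stood at 145, 168 and 152 CPM in KO-labelled libraries, against 122, 113 and 111 CPM in WT libraries (log2 difference 0.42, SE 0.08, adjusted p = 0.00188). Mcm5 and Mcm2 had log2 differences of 0.45 and 0.30 (adjusted p = 0.00214 and 0.0277). Of the ring, only Mcm2 lost its call in a leave-one-out fit: its adjusted p exceeded 0.05 when KO-labelled replicate 2 or 3, or WT replicate 2 or 3, was left out, and reached 0.114.

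The 6 proteins are present in equal numbers in the ring, while their mRNA levels per exon length were not equal. That length is the union of annotated exons, 6956 bases for Mcm2 and 4426 for Mcm7, and the order of genes depends on it. In CPM, Mcm2 averaged 154 in the KO-labelled and 126 in the WT libraries, beside 155 and 116 for Mcm7. Per exon length, Mcm6 was at 71.4 ± 2.44 CPM per kb in the KO-labelled libraries and 42.9 ± 0.167 CPM per kb in the WT libraries (SD, n = 3 each). Mcm4 was at 64.3 ± 2.597 and 45.3 ± 0.965 CPM per kb, and Mcm2, the lowest of the ring, at 22.2 ± 2.502 and 18.05 ± 1.16 CPM per kb in the KO-labelled and WT libraries. By this measure Mcm6 was the highest of the ring in the KO-labelled libraries and came after Mcm4 in the WT libraries. In CPM it was the highest in both groups, at 333 and 200 on average, beside 231 and 163 for Mcm4. Per exon length the highest member exceeded the lowest 3.22-fold in the KO-labelled libraries and 2.51-fold in the WT libraries. The ratio of Mcm6 to Mcm2 per exon length was 3.63, 3.08 and 3.01 in the KO-labelled libraries, against 2.23, 2.38 and 2.55 in the WT libraries, without overlap. Mcm6 and Mcm2 had the largest and smallest log2 differences of the ring (0.73 and 0.30). Their ratio follows from those values and is no separate evidence.

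**Figure D3:**
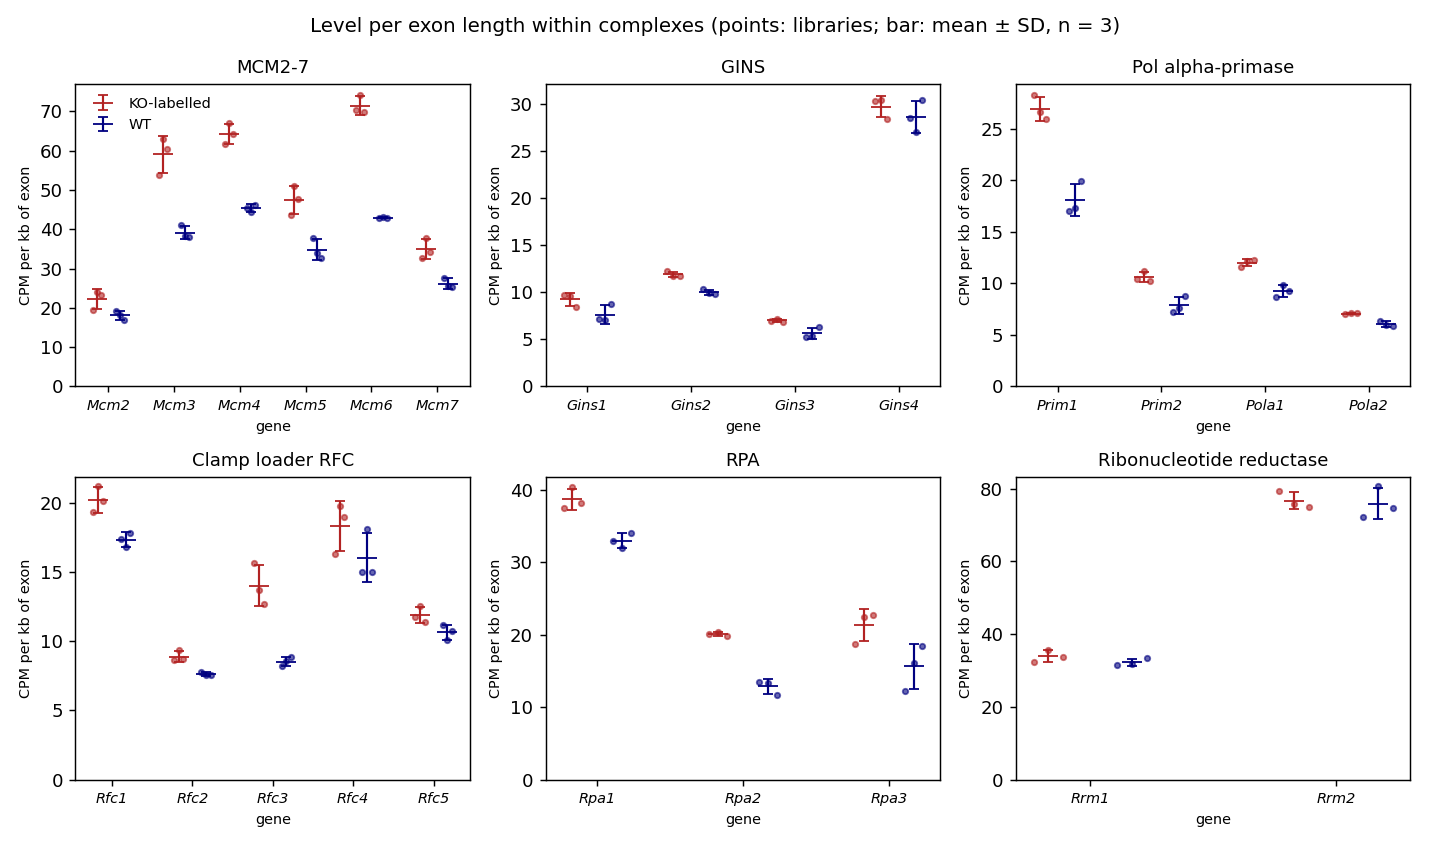
Level per exon length (y axis, CPM per kb of exon) of the genes of multi-subunit complexes, with KO-labelled libraries in red left of WT libraries in blue; points are libraries, and bars are the mean ± SD (n = 3). In the MCM2-7 panel Mcm6 is the highest gene in the KO-labelled libraries (71.4 CPM per kb) and Mcm2 the lowest in both groups.

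Of the 6 genes that turn the loaded ring into a working helicase, 4 were higher and 2 did not pass the test (median log2 difference 0.28). Mcm10, an activation factor, stood at 51.1, 54.6 and 54.1 CPM in KO-labelled libraries, against 44.3, 41.8 and 43.2 CPM in WT libraries (log2 difference 0.30, SE 0.07, adjusted p = 0.00603). Cdc45, a component of the active CMG helicase, stood at 43.9, 44.4 and 42.5 CPM in KO-labelled libraries, against 35.4, 34.6 and 36.99 CPM in WT libraries (log2 difference 0.29, SE 0.07, adjusted p = 0.00717). Of the GINS subunits, which complete that helicase, Gins2 stood at 50.1, 47.96 and 48.2 CPM in KO-labelled libraries, against 42.3, 40.5 and 40.3 CPM in WT libraries (log2 difference 0.25, SE 0.07, adjusted p = 0.0144). The groups did not overlap for these 3 genes, but the differences were under 1.5-fold. Gins3 stood at 18.9, 19.5 and 18.6 CPM in KO-labelled libraries, against 14.1, 14.6 and 16.99 CPM in WT libraries (log2 difference 0.32, SE 0.09, adjusted p = 0.0163). Without WT replicate 2 the adjusted p was 0.071 for Gins2 and 0.085 for Gins3, and Gins3 also lost the call without KO-labelled replicate 2. Gins1 and Gins4 had log2 differences of 0.28 and 0.05 (adjusted p = 0.0727 and 0.594), and Gins1 passed without WT replicate 3 (adjusted p = 0.016). Per exon length Gins4 was the highest GINS gene, at 29.7 CPM per kb in the KO-labelled libraries and 28.7 CPM per kb in the WT libraries, and Gins3 the lowest, at 7.03 and 5.63 CPM per kb. That order depends on the annotated exon lengths, 1349 bases for Gins4 and 4097 for Gins2. In CPM Gins2 was above Gins4, at 48.8 against 40.1 in the KO-labelled and 41.0 against 38.7 in the WT libraries on average. Of the exon bases of Gins2, 67.3% overlap those of Gse1 on the other strand, and the strand setting of the counting is not given; Gse1 was lower in the KO-labelled libraries (log2 difference -0.44, adjusted p = 0.0329).

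Both cyclin E genes were higher, and their kinase partner did not pass the test. Ccne1 stood at 29.02, 30.2 and 29.9 CPM in KO-labelled libraries, against 20.2, 21.8 and 21.8 CPM in WT libraries (log2 difference 0.48, SE 0.07, adjusted p = 0.000396). Ccne2 stood at 77.8, 79.6 and 80.2 CPM in KO-labelled libraries, against 39.2, 58.4 and 66.8 CPM in WT libraries (log2 difference 0.53, SE 0.16, adjusted p = 0.0242). The 3 KO-labelled values of Ccne2 were close together while the WT values were spread, with WT replicate 1 the lowest. Its adjusted p was up to 0.0666 when any 1 of the KO-labelled libraries or WT replicate 2 was left out. Ints8, whose exons on the other strand cover 17.4% of the exon bases of Ccne2, was also higher (log2 difference 0.41, adjusted p = 0.00238). Cdk2 had a log2 difference of 0.17 (adjusted p = 0.097), with all KO-labelled values above all WT values.

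Of the 9 genes of primase and the replicative polymerases, 7 were higher and 2 did not pass (median log2 difference 0.31). All 4 subunits of the polymerase alpha-primase complex, which starts each new strand, were among them. Prim1, the catalytic primase subunit, stood at 109, 103 and 100.5 CPM in KO-labelled libraries, against 65.97, 67.2 and 77.05 CPM in WT libraries (log2 difference 0.57, SE 0.08, adjusted p = 0.000353). Prim2, the large primase subunit, stood at 62.1, 66.4 and 60.5 CPM in KO-labelled libraries, against 43.1, 45.02 and 52.2 CPM in WT libraries (log2 difference 0.43, SE 0.09, adjusted p = 0.00371). Pola1, the catalytic polymerase subunit, stood at 102, 107 and 108 CPM in KO-labelled libraries, against 76.5, 87.1 and 81.8 CPM in WT libraries (log2 difference 0.37, SE 0.07, adjusted p = 0.0024). The groups were separate for each of the 3, and Prim1 showed the widest gap of them. Pola2 had a log2 difference of 0.23 (adjusted p = 0.0258), and its adjusted p was up to 0.11 when KO-labelled replicate 2 or 3 or WT replicate 2 was left out.

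Of the leading-strand polymerase epsilon, Pole2, an accessory subunit, stood at 37.4, 37.4 and 37.6 CPM in KO-labelled libraries, against 27.3, 28.2 and 29.96 CPM in WT libraries (log2 difference 0.39, SE 0.07, adjusted p = 0.00139), and its 3 KO-labelled values were nearly equal. Pole, the catalytic subunit, had a log2 difference of 0.31 (adjusted p = 0.00619). Of the lagging-strand polymerase delta, Pold3 had a log2 difference of 0.24 (adjusted p = 0.0293), which became up to 0.116 when KO-labelled replicate 1 or 2 or WT replicate 1 or 2 was left out. Pold1, the catalytic subunit, and Pold2 had log2 differences of 0.21 and 0.14 (adjusted p = 0.187 and 0.147); the WT values of Pold1 ran from 28.03 to 40.7 CPM and overlapped the KO-labelled ones, and Pold1 passed without WT replicate 1 (adjusted p = 0.0321). The small subunit gene Pold4, from the list of other replication genes, was lower: it stood at 14.1, 16.99 and 15.2 CPM in KO-labelled libraries, against 23.96, 24.5 and 27.2 CPM in WT libraries (log2 difference -0.71, SE 0.09, adjusted p = 0.000232).

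Of the 11 genes of the clamp, its loader, RPA and lagging-strand processing, 8 were higher and 3 did not pass (median log2 difference 0.23). Rpa2, the middle subunit of the single-strand binding protein RPA, stood at 59.9, 61.1 and 59.3 CPM in KO-labelled libraries, against 40.4, 40.1 and 34.9 CPM in WT libraries (log2 difference 0.65, SE 0.08, adjusted p = 0.000164). Rfc3, a small subunit of the clamp loader RFC, stood at 56.5, 49.5 and 45.8 CPM in KO-labelled libraries, against 29.5, 30.8 and 32.03 CPM in WT libraries (log2 difference 0.72, SE 0.09, adjusted p = 0.000183). Both were past 1.5-fold, and all KO-labelled values lay well above the WT values. Pcna, the sliding clamp itself, stood at 201, 209 and 193 CPM in KO-labelled libraries, against 137, 158 and 159 CPM in WT libraries (log2 difference 0.41, SE 0.08, adjusted p = 0.0024). Lig1, the ligase that joins lagging-strand fragments, stood at 116, 131 and 115 CPM in KO-labelled libraries, against 102, 88.8 and 89.97 CPM in WT libraries (log2 difference 0.37, SE 0.08, adjusted p = 0.00581). Reads of Pcna may be shared with its processed copy Pcna-ps2, which was listed at 92.2 ± 4.20 CPM in the KO-labelled libraries and 65.7 ± 7.06 CPM in the WT libraries (SD, n = 3 each). The sum of both was 295, 303 and 280.0 CPM in the KO-labelled libraries, against 197, 222 and 232 CPM in the WT libraries, which did not overlap either.

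The subunits of RFC and RPA had unequal estimates, and the differences between subunits were not tested. Beside Rfc3 at 0.72, Rfc1 and Rfc2 had log2 differences of 0.22 and 0.22 (adjusted p = 0.0225 and 0.0299), and Rfc4 and Rfc5 had 0.19 and 0.16 (adjusted p = 0.161 and 0.112). On the other strand, Lat2, Eif4a2 and Wsb2 overlap 15.1%, 12.7% and 10.7% of the exon bases of Rfc2, Rfc4 and Rfc5. Eif4a2 averaged 379 and 421 CPM and Wsb2 162 and 145 CPM in the KO-labelled and WT libraries, far above Rfc4 and Rfc5. The part of such reads in these estimates was not tested. Beside Rpa2 at 0.65, Rpa3 and Rpa1 had 0.45 and 0.23 (adjusted p = 0.0312 and 0.0198). Rfc1, Rfc2 and Rpa1 each lost the call when KO-labelled replicate 2 or 3 or WT replicate 2 was left out, with adjusted p up to 0.127, 0.132 and 0.113. Rpa3 lost it without KO-labelled replicate 2 or 3 or WT replicate 1 or 2 (up to 0.0992). Per exon length Rpa1 exceeded Rpa2 1.92-fold in the KO-labelled libraries and 2.57-fold in the WT libraries. Fen1, the flap endonuclease of fragment maturation, had a log2 difference of 0.14 (adjusted p = 0.172), and 78.8% of its exon bases overlap the antisense gene Gm10143.

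Of the 4 fork protection genes, 3 were higher and 1 did not pass (median log2 difference 0.35). Clspn, which encodes the checkpoint adaptor claspin, stood at 94.9, 98.4 and 92.4 CPM in KO-labelled libraries, against 71.8, 66.3 and 75.5 CPM in WT libraries (log2 difference 0.42, SE 0.07, adjusted p = 0.00128). Wdhd1, which encodes the And-1 protein that ties polymerase alpha to the helicase, stood at 73.8, 75.2 and 71.4 CPM in KO-labelled libraries, against 56.3, 56.4 and 59.8 CPM in WT libraries (log2 difference 0.35, SE 0.07, adjusted p = 0.00217). Timeless stood at 51.8, 58.1 and 52.3 CPM in KO-labelled libraries, against 47.6, 41.00 and 38.9 CPM in WT libraries (log2 difference 0.35, SE 0.09, adjusted p = 0.0141). The groups were separate for the 3 genes; for Timeless the gap was the narrowest, and its adjusted p was up to 0.0668 without KO-labelled replicate 2 or WT replicate 2. Tipin, the partner of Timeless, had a log2 difference of 0.20 (adjusted p = 0.113), and passed without WT replicate 3 (adjusted p = 0.0234).

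All 3 genes of chromatin assembly and histone mRNA processing were higher; their median log2 difference was 0.55, and the ratio of summed levels was 1.46. Chaf1b, a subunit of the histone chaperone CAF-1, lies at chr16:93883901-93906115 on the plus strand and stood at 67.4, 64.7 and 64.7 CPM in KO-labelled libraries, against 43.7, 42.04 and 42.8 CPM in WT libraries (log2 difference 0.61, SE 0.07, adjusted p = 7.42e-05). Chaf1a, the large subunit, stood at 103, 121 and 117 CPM in KO-labelled libraries, against 83.1, 75.4 and 74.1 CPM in WT libraries (log2 difference 0.55, SE 0.08, adjusted p = 0.000609). Per exon length the pair was at similar levels, 12.8 to 14.0 CPM per kb in the KO-labelled libraries and 8.76 to 9.16 CPM per kb in the WT libraries. That similarity depends on the annotated exon lengths, 8854 bases for Chaf1a and 4681 for Chaf1b. In CPM Chaf1a was above Chaf1b, at 113 against 65.6 in the KO-labelled and 77.5 against 42.9 in the WT libraries on average. Slbp, which binds the stem-loop of replication-dependent histone mRNAs, stood at 122, 112 and 106 CPM in KO-labelled libraries, against 74.2, 81.5 and 83.4 CPM in WT libraries (log2 difference 0.51, SE 0.08, adjusted p = 0.000739). None of the 3 genes overlapped between groups. Of the exon bases of Chaf1a, 52.5% overlap those of Ubxn6 on the other strand, which had a log2 difference of 0.02 (adjusted p = 0.854).

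Of the 4 nucleotide supply genes, 1 was higher and 3 did not pass, with a median log2 difference of 0.04. Rrm1, the large subunit of ribonucleotide reductase, stood at 356, 392 and 372 CPM in KO-labelled libraries, against 348, 351 and 367 CPM in WT libraries (log2 difference 0.07, SE 0.07, adjusted p = 0.448, 95% interval -0.07 to 0.21). Rrm2, its small subunit, stood at 219.9, 209.9 and 208 CPM in KO-labelled libraries, against 200.2, 224 and 207 CPM in WT libraries (log2 difference 0.02, SE 0.07, adjusted p = 0.882, 95% interval -0.12 to 0.15). The values of the groups overlapped for both genes. The upper bounds of both intervals lie below the estimates of all 6 MCM2-7 genes, but the interval of Mcm2, 0.12 to 0.48, overlaps both. With each chromosome's median taken out, Rrm1 and Mcm2 both stood at 0.13. Differences between these genes were not tested. Tyms, thymidylate synthase, stood at 73.8, 87.5 and 77.9 CPM in KO-labelled libraries, against 65.6, 67.8 and 68.7 CPM in WT libraries (log2 difference 0.24, SE 0.08, adjusted p = 0.0319); its adjusted p was up to 0.156 when KO-labelled replicate 2 or 3 or WT replicate 1 or 2 was left out. Tk1, thymidine kinase, described because it was the only member with a negative estimate, stood at 87.3, 87.9 and 80.7 CPM in KO-labelled libraries, against 103, 93.96 and 81.3 CPM in WT libraries (log2 difference -0.12, SE 0.09, adjusted p = 0.325, 95% interval -0.30 to 0.06).

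The summed level of the nucleotide supply genes was 737, 778 and 738 CPM in the KO-labelled libraries, against 716, 736 and 724 CPM in the WT libraries, a ratio of 1.03. Rrm1 and Rrm2, which averaged 373 and 213 CPM in the KO-labelled libraries, made up most of this sum. The ratio of the MCM2-7 sum to the nucleotide supply sum was 1.64, 1.75 and 1.74 in the KO-labelled libraries and 1.29, 1.19 and 1.198 in the WT libraries, without overlap. Nucleotide supply had the lowest ratio of summed levels of all roles and MCM2-7 one of the highest. The lack of overlap follows from that choice of roles and is no separate evidence. Over all 52 genes the summed level was 4758, 5042 and 4800 CPM in the KO-labelled libraries, against 3836, 3824 and 3859 CPM in the WT libraries, a ratio of 1.27. The 7 other roles had ratios of summed levels between 1.18 for helicase activation and 1.46 for chromatin assembly and histone mRNA.

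**Figure D4:**
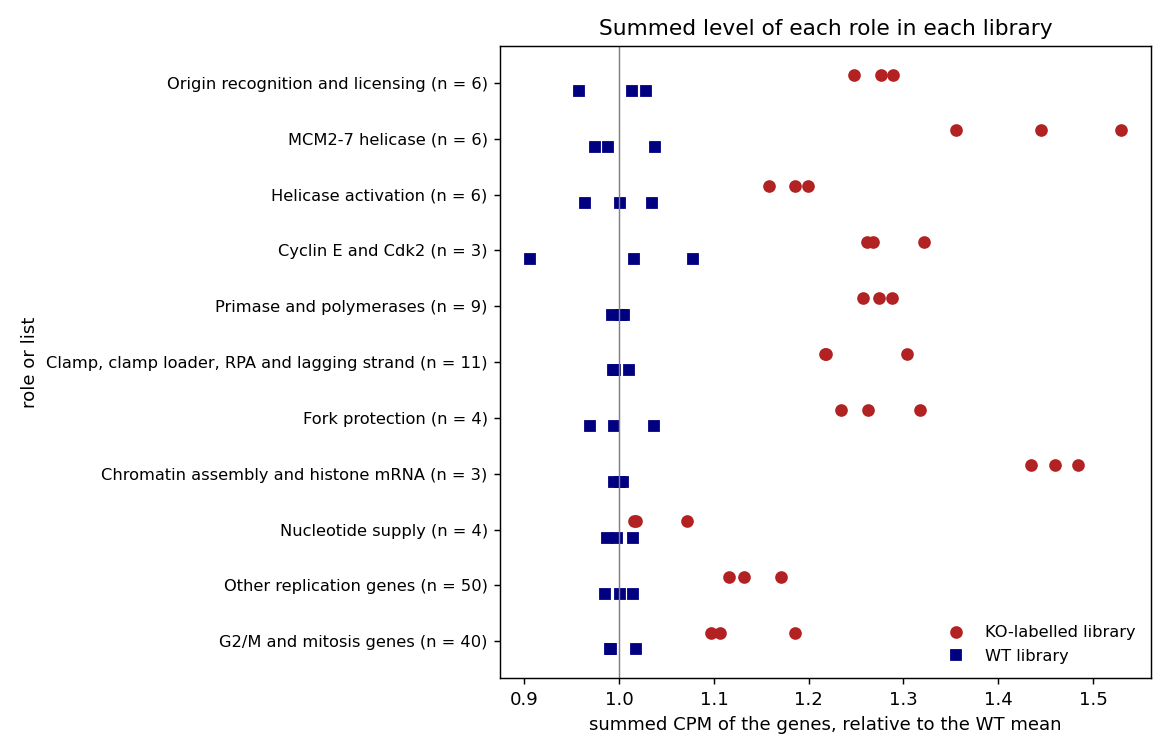
Summed CPM of the genes of each role and of the 2 comparison lists in each library, relative to the WT mean (x axis, a ratio), with KO-labelled libraries as red circles above WT libraries as blue squares. The MCM2-7 and chromatin assembly sums are 1.44 and 1.46 times the WT mean in the KO-labelled libraries, and the nucleotide supply sum is 1.03 times it.

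The libraries of a group differed among themselves. KO-labelled replicate 2 had the highest of the 3 KO-labelled values for 34 of the 52 genes, all 6 MCM2-7 genes included, and replicates 1 and 3 had it for 11 and 7. The median log2 deviation of the members from their group mean was -0.02, 0.05 and -0.03 in KO-labelled replicates 1, 2 and 3. In the WT libraries it was 0.00, -0.02 and 0.02. WT replicate 1 had the highest WT value for 22 genes, 4 of the 6 MCM2-7 genes among them, and the lowest for 20, so the WT libraries did not keep 1 order across roles.

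**Figure D5:**
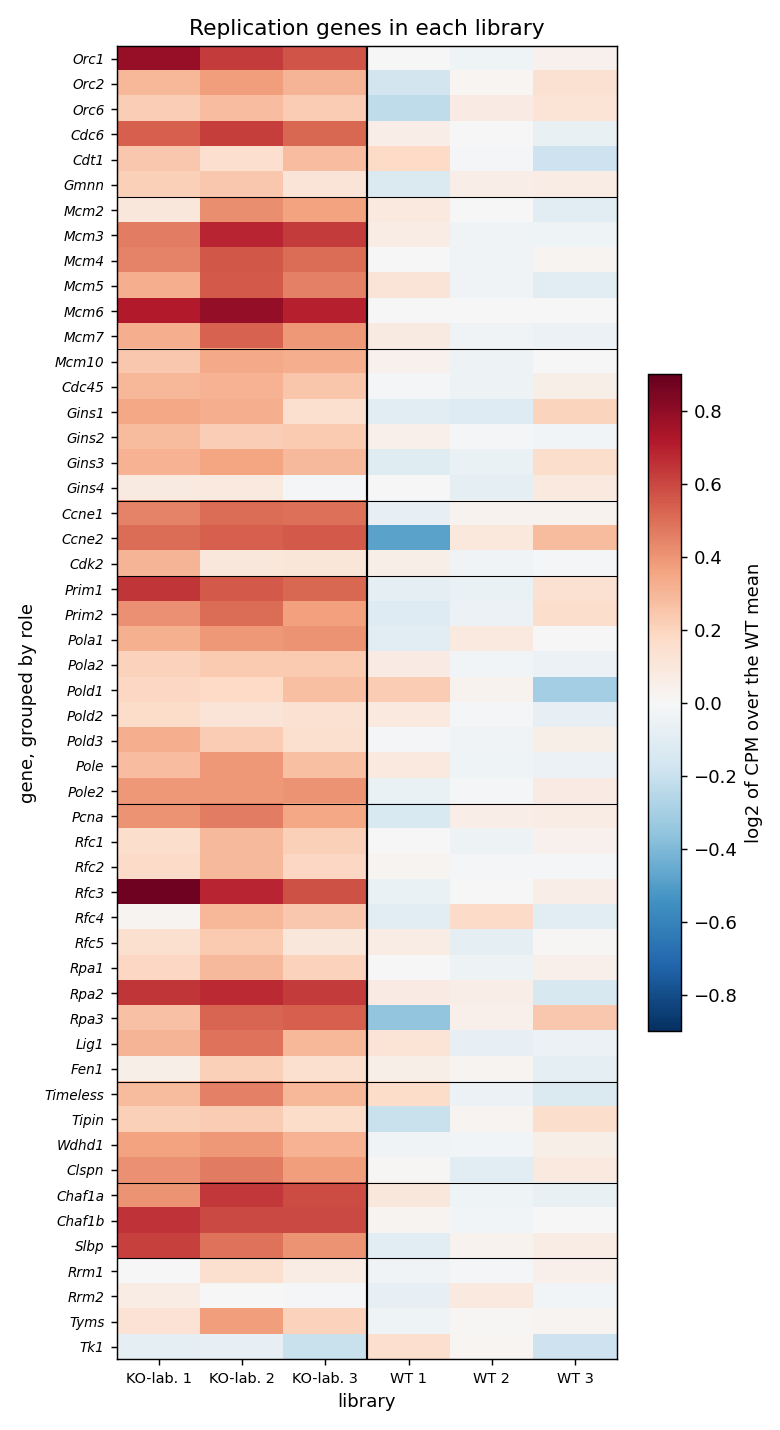
Each of the 52 genes (y axis, grouped by role) in each library (x axis, KO-labelled left of WT), coloured by the log2 of its CPM over the WT mean, with red above and blue below. The KO-labelled columns are red for most genes, and KO-labelled replicate 2 has the highest KO-labelled value for 34 of 52 genes. The Rrm1, Rrm2, Gins4 and Tk1 lines are among those that stay pale.

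Chromosomes differed in their median log2 difference over all genes tested. The median was 0.29 for chromosome 1, which holds Orc2, Mcm3, Mcm6 and Prim2, all 4 called higher. It was 0.27 for chromosome 17, which holds Chaf1a, and 0.12 for chromosome 4, which holds Orc1, Ccne2, Rpa2 and Clspn. It was -0.28 for chromosome 13, with Gmnn, and -0.19 for chromosome 19, with Pola2 and Fen1. With each chromosome's median taken out, 35 members were called higher, 29 of them shared with the 37, and the members' median log2 difference stood at 0.31 above the chromosome median. Relative to chromosome 1, Mcm6 stood at 0.45 and Mcm3 at 0.31 (adjusted p = 0.000522 and 0.0121), while Orc2 and Prim2 stood at 0.04 and 0.14 and lost the call (adjusted p = 0.759 and 0.24). Mcm2, Ccne2, Rfc1, Rfc2, Rpa3 and Tyms also lost it, and Gmnn, Gins1, Cdk2, Pold2, Fen1 and Tipin gained it. What sets the chromosome medians apart was not tested.

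The list of 50 other replication genes held 24 that were higher, 3 that were lower (Pold4, Mcm9 and Impdh2) and 23 that did not pass, with a median log2 difference of 0.20; the count of 24 was 14 without WT replicate 2 and 15 without KO-labelled replicate 2. Dtl, the substrate receptor of the ubiquitin ligase that removes Cdt1 in S phase, stood at 106, 103 and 105 CPM in KO-labelled libraries, against 55.1, 58.3 and 57.8 CPM in WT libraries (log2 difference 0.88, SE 0.06, adjusted p = 5.22e-06). Uhrf1, which guides maintenance DNA methylation behind the fork, stood at 244, 274 and 273 CPM in KO-labelled libraries, against 165, 147 and 139.9 CPM in WT libraries (log2 difference 0.81, SE 0.08, adjusted p = 6.05e-05). As tested, the log2 estimates of these 2 genes were above that of any of the 52 members; relative to their chromosomes' medians they were 0.59 and 0.53, below Rfc3, Prim1, Cdc6 and Chaf1b. Usp1, a deubiquitinase that acts on PCNA, Atad5, which unloads PCNA, and Donson, a factor of helicase assembly, had log2 differences of 0.58, 0.57 and 0.47 (adjusted p = 0.000288, 0.000183 and 0.000514).

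Some other genes of nucleotide synthesis in that list are named here after their values were seen. The deoxycytidine kinase Dck, the thymidylate kinase Dtymk and the dUTPase Dut were higher, with log2 differences of 0.50, 0.38 and 0.21 (adjusted p = 0.00391, 0.00122 and 0.0299). Impdh2, of guanine nucleotide synthesis, was lower (-0.39, adjusted p = 0.00235). Rrm2b, the other small subunit of ribonucleotide reductase, and the dNTP hydrolase Samhd1 had log2 differences of 0.05 and 0.06 and did not pass (adjusted p = 0.784 and 0.491).

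Of 40 G2/M and mitosis genes, 16 were higher, 1 was lower (Aurka) and 23 did not pass, with a median log2 difference of 0.17; the count of 16 was 10 without KO-labelled replicate 2 and 10 without WT replicate 2. Pttg1, Cdc25c and Smc2, which encode securin, a mitotic phosphatase and a condensin subunit, had log2 differences of 0.60, 0.57 and 0.53 (adjusted p = 0.000284, 0.000197 and 0.000524). Aurka, the mitotic kinase, had -0.22 (adjusted p = 0.0466). The ratio of the members' summed level to that of these 40 genes was 0.679, 0.672 and 0.691 in the KO-labelled libraries, against 0.595, 0.610 and 0.614 in the WT libraries, without overlap.

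Of 20 cell cycle regulators, 19 were tested; 6 were higher, 3 lower and 10 did not pass, with a median log2 difference of -0.02. Cdkn1a, which encodes the CDK inhibitor p21, stood at 81.3, 87.1 and 78.6 CPM in KO-labelled libraries, against 305, 303 and 291 CPM in WT libraries (log2 difference -1.86, SE 0.07, adjusted p = 7.71e-08), and its KO-labelled values lay far below the WT values. Ccnd1, cyclin D1, averaged 382 ± 27.9 CPM in the KO-labelled libraries and 596 ± 5.08 CPM in the WT libraries (SD, n = 3 each; log2 difference -0.64, SE 0.08, adjusted p = 0.000162). Cdkn2c, which encodes the CDK4/6 inhibitor p18, had a log2 difference of 0.53 (adjusted p = 0.00069). Rb1, the third gene called lower, named after its value was seen, had -0.35 (adjusted p = 0.00524). Among the E2F genes, E2f1 stood at 38.9 ± 0.548 CPM in the KO-labelled libraries and 39.4 ± 1.86 CPM in the WT libraries (SD, n = 3 each; adjusted p = 0.852). E2f3, E2f4 and E2f8, named after their values were seen, did not pass. Their log2 differences were -0.20, -0.21 and 0.12 (adjusted p = 0.0532, 0.0696 and 0.221). E2f2, named after its value was seen, was higher (log2 difference 0.79, adjusted p = 0.00545) at a level under 4 CPM in every library. The other 4 regulators called higher had log2 differences of 0.21 to 0.42. They were the CDK inhibitor genes Cdkn2a (0.42, adjusted p = 0.0316) and Cdkn1b (0.38, adjusted p = 0.00216), Rbl1, of the same family as Rb1 (0.25, adjusted p = 0.0251), and E2f7 (0.21, adjusted p = 0.0415).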

How the data were processed

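For each of 6 libraries the authors deposited expected counts per gene from RSEM; cutadapt and build GRCm38 are the other entries in the submitters' processing notes. Software versions, the aligner and the counting's strand setting are not given there. RSEM shares out reads with several possible genes, and 17.9% of the deposited expected counts are not whole; 36 of the 52 members have such a value and the exons of 21 overlap another gene, so reads of overlapping or antisense genes cannot be told apart. Expected counts were rounded to whole numbers. Symbols and positions came from GENCODE M21 (GRCm38), which matched 55230 of 55471 identifiers.

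Genes with at least 10 counts in enough libraries and 15 in all were kept by edgeR 4.0.16 in R 4.3.3 (15454 genes), scaled by TMM and tested with its quasi-likelihood test, KO-labelled against WT, 3 libraries each. P-values were adjusted by Benjamini-Hochberg over all genes tested, and a call is an adjusted p below 0.05. CPM values are TMM-scaled. Levels per exon length divide them by the union of annotated exons, so comparisons between genes depend on the annotation. The 95% intervals are normal ones around the log2 difference and are narrower than the quasi-likelihood test implies. The common biological coefficient of variation was 11.5%. Members were covered by 3031 to 86568 counts over the 6 libraries. No pair of libraries in a group agreed within sampling noise. The procedure was tested on simulated data. Promoter sequences are from RefSeq, and 36 of 42 member genes had a GENCODE transcript holding the bases after the start in the same orientation.

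Values in every library are given for up to 4 called members of each role by smallest adjusted p, and for up to 2 of highest mean CPM in a role with fewer than 2 called. Up to 6 other replication genes, and up to 3 genes each of G2/M and of the regulators, are named by the same order. The members and the lists were chosen with earlier results of these data known, and the lists give no independent support. Alternatives were RLE size factors, library size alone, DESeq2 1.42.0, 2 other filters, a replicate block, each chromosome's median taken out, and each library left out.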

Additional observations from a re-analysis of the deposited data

How the results depend on the processing

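The count of members called higher, 37 as reported, was 37 with RLE size factors or library size alone, 38 with DESeq2, 38 with a filter of 1 CPM, 30 with no filter on low counts and 35 with each chromosome's median taken out. Leaving out each library in turn gave 24 to 39. Of the 37, 23 kept the call under all 13 alternatives. Under all of them 0 members were called lower. Other replication genes called higher numbered 24, and 14 to 23 with 1 library left out, and those called lower 3, and 2 to 4. G2/M and mitosis genes called higher numbered 16, and 10 to 16 with 1 library left out. Those called lower numbered 1, and 0 to 1 with 1 library left out, 2 with DESeq2 or no filter, and 0 with RLE factors, library size alone, 1 CPM, the replicate block or the chromosome median taken out. Calls over the whole table stayed within 1.5 times the reported counts (1839 to 2796 higher, 2514 to 3916 lower). Rrm2, not called, turned negative at -0.019 with no filter and -0.094 with the chromosome median taken out, and ran from -0.023 (without WT replicate 1; -0.011 without KO-labelled replicate 1) to 0.059 with 1 library left out; the cause was not tested.

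The labels share replicate numbers, but same-numbered libraries did not deviate together (correlations 0.02, -0.08 and -0.03), so the numbers were not taken as pairs. With the replicate block 30 members were called higher, 17 other replication genes and 11 G2/M genes. The cause of the lower counts was not tested. Each group has 3 libraries (2 in a group with 1 left out), which limits the precision of small differences. Groups of 3 are too small for a search for outlying libraries.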
